A study of Mus musculus with 4 samples.

Results

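The genes described here encode the Wnt pathway from secreted signal to nucleus: the Wnt ligands, the R-spondins, the Frizzled and other receptors, and the transducers that carry the signal inside the cell. A gene was a member if its array symbol was a Wnt, Frizzled (Fzd), R-spondin (Rspo), Dishevelled (Dvl), Axin or Ror gene, or was Lrp5, Lrp6, Apc, Gsk3b, Lef1, Tcf7l1, Tcf7l2 or Porcn. In this way 47 of 19505 named genes were found, each read by 1 probe (the set of oligonucleotides for 1 transcript cluster). Ctnnb1, Dvl2 and Tcf7, which the same rule names, were not analysed here.

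Whole hearts of 4 male mice were measured, 2 TTg-MI (genotype Tcf21iCre/Tomato/MGTH2A) and 2 Ctrl-MI (genotype Tcf21iCre/Tomato), given as independent biological replicates. In both groups the left coronary artery had been ligated at 8 weeks of age and the heart was collected 3 months later. Mice with an ejection fraction above 45% at 2 days after ligation had been excluded. Both groups thus carried the infarct, the Tomato reporter and a Cre driven by Tcf21, a gene of cardiac fibroblasts, and MGTH2A, known in the field as a construct of the cardiac factors Mef2c, Gata4, Tbx5 and Hand2, was the 1 labelled difference. Because whole heart RNA was used, fewer cells of a type and less RNA per cell cannot be told apart in any value below.

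Wnt proteins are lipid-modified signals that bind Frizzled receptors. With the co-receptors Lrp5 and Lrp6 they stop a destruction complex from degrading beta-catenin, which then acts on target genes with the TCF/LEF factors. Other branches run through Frizzled or Ror receptors to cell polarity and calcium without beta-catenin. In the injured heart the pathway is known to be active in fibroblasts, epicardium and vessels, and to take part in scar formation.

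The array medians lay between 6.55 and 6.62 log2 units, and Ctrl-MI replicate 1 stood apart on the first principal component, which held 58.4% of the variance. Ctrl-MI replicates 1 and 2 stood at -47.1 and -1.3 on it, and TTg-MI replicates 1 and 2 at 16.5 and 31.9. Over all probes Ctrl-MI replicate 2 correlated at 0.987 with Ctrl-MI replicate 1, against 0.991 and 0.989 with TTg-MI replicates 1 and 2. Cardiomyocyte markers were high on every array, with a mean log2 level of 19.00 and 19.05 in TTg-MI and 18.71 and 19.00 in Ctrl-MI. Of these, Mb and Atp2a2 stood at the array maximum (19.92 or 19.93) on every array, where a difference could not show. Markers of atrial muscle averaged 14.55 and 13.58 in TTg-MI, against 12.55 and 9.53 in Ctrl-MI replicates 1 and 2. Of these 6 markers 5 had a higher mean in TTg-MI and Nppa a lower one. Nppa stood at the array maximum in Ctrl-MI replicate 1 (19.92). It was close to the maximum in TTg-MI replicate 1 (19.91) and Ctrl-MI replicate 2 (19.90), so its lower mean rests on TTg-MI replicate 2 (18.85). The groups overlapped for 3, Nppa, Myl4 and Sln. Myl4 and Sln were low in Ctrl-MI replicate 2 alone (7.70 and 7.90), against 15.99 and 14.07 in Ctrl-MI replicate 1. Bmp10 had 12.38 and 11.82 in TTg-MI, against 5.31 and 5.39 in Ctrl-MI. Marker lists of fibroblasts and macrophages were lower in TTg-MI and are given beside the receptors below.

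None of the 47 Wnt pathway genes passed the threshold between TTg-MI and Ctrl-MI hearts in limma with Benjamini-Hochberg adjustment across all 22206 probes, the smallest adjusted p being 0.588. In that test 1 probe of the whole array passed (0.0045%). At an unadjusted limma p under 0.05 there were 2 of the 47, Fzd1 and Lrp5, both lower in TTg-MI, which is 4.26% of the members, beside 8.25% of all probes (5.07% lower and 3.18% higher in TTg-MI). The log2 differences (TTg-MI mean minus Ctrl-MI mean) had a median of -0.01, beside 0.01 over all named genes, with 19 members higher and 28 lower, dim genes counted. Their median size without regard to sign was 0.09, beside 0.15 over all named genes.

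For most members the 2 hearts of at least 1 group differed from each other by more than the group means did. This held for 42 of the 47 (89.4%), beside 75.0% of all probes. The arrays of the groups did not overlap for 8 members (17%, beside 38.1% of all probes). Of these, 4 were higher in TTg-MI (19.4% of all probes were), namely Wnt6, Wnt7a, Fzd8 and Tcf7l2. The other 4 were lower (18.7% of all probes were), namely Wnt9a, Fzd1, Lrp5 and a gene too dim on every array for its direction to be read, Rspo3.

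**Figure D1:**
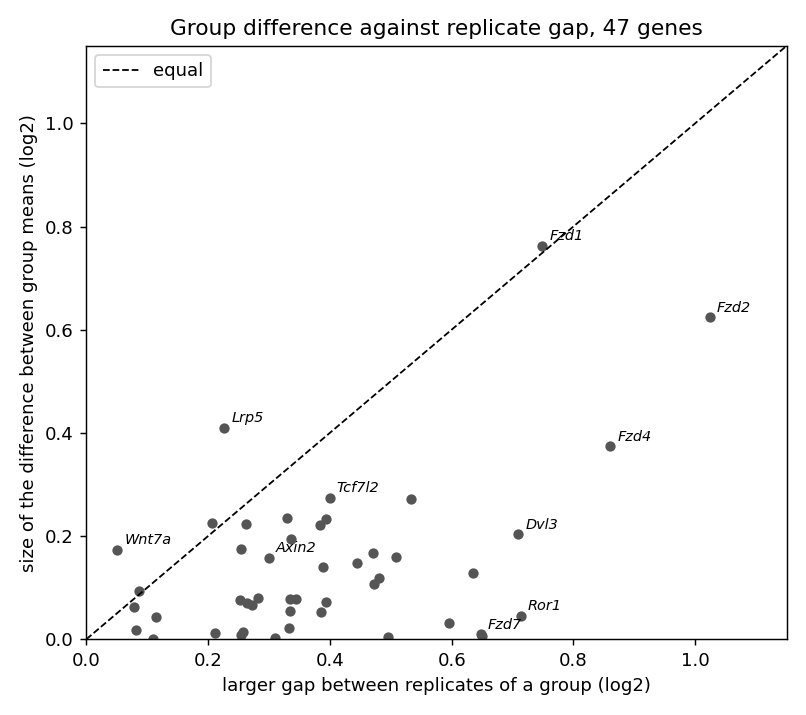
Size of the difference between group means (vertical axis, log2 units) against the larger of the gaps between the 2 replicates of a group (horizontal axis, log2 units) for 47 Wnt pathway genes, 1 point each. The dashed line marks equality, and 42 of the 47 points lie under it; Fzd1 lies just above it and Lrp5 clearly above.

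The 95% intervals of the limma differences were read for the 38 members above the lower quartile of signal on all 4 arrays. For 35 of them (92.1%) the whole interval lay inside a 2-fold change in either direction, beside 81.3% of the 15494 probes that were as bright. The exceptions were Fzd1, Fzd2 and Fzd4, whose intervals reached -1.46, -1.56 and -1.14 on the log2 scale. A value above the lower quartile does not show that a gene was expressed, and only 23 of the 38 lay above the array median on all 4 arrays. For a probe near background a narrow interval sets no bound on a change. The other 9 members lay under the lower quartile on at least 1 array, and their intervals set no bound on a change either.

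**Figure D2:**
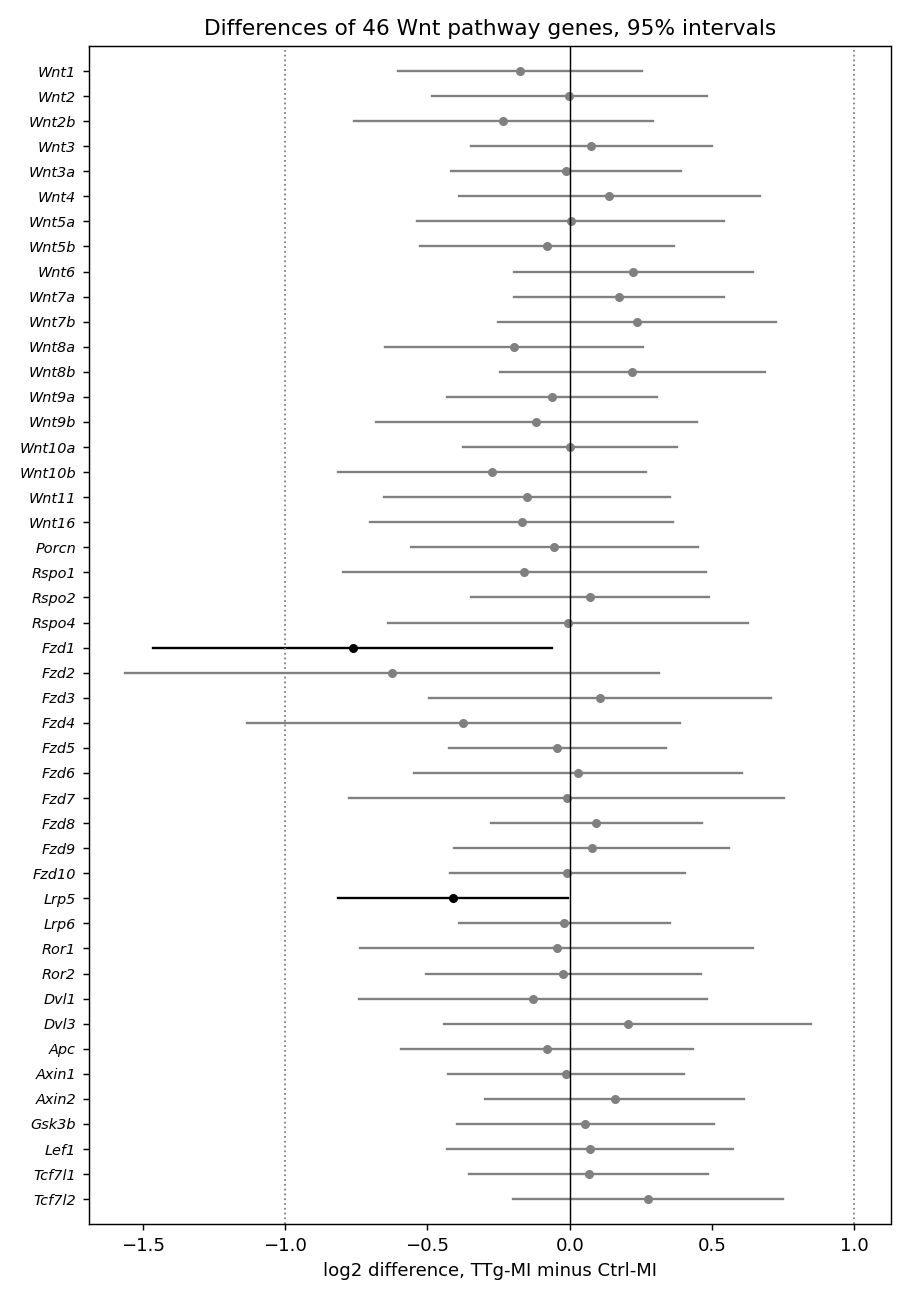
Log2 difference, TTg-MI minus Ctrl-MI (horizontal axis), with its 95% interval from limma for 46 Wnt pathway genes (vertical axis). Rspo3, under the lower quartile on every array, is left out. Dotted lines mark a 2-fold change; the 2 genes at an unadjusted p under 0.05, Fzd1 and Lrp5, are black, and the other intervals, in grey, include 0.

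Among the 19 Wnt ligands, 8 were higher and 11 lower in TTg-MI, with log2 differences from -0.27 for Wnt10b to 0.24 for Wnt7b and 0 at an unadjusted p under 0.05. Wnt9b, known for its part in kidney tubule formation, stood at 7.66 and 8.14 in TTg-MI, against 8.18 and 7.86 in Ctrl-MI. The groups overlapped, and the log2 difference was -0.12 (SE 0.23, 95% interval -0.68 to 0.45). Wnt5a and Wnt11, described next, were chosen after their values were seen.

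Wnt5a, a ligand of the polarity and calcium branch, had 7.59 and 7.10 in TTg-MI, against 7.43 and 7.24 in Ctrl-MI. Both Ctrl-MI arrays lay between the TTg-MI arrays, for a log2 difference of 0.00 (SE 0.22, 95% interval -0.54 to 0.54). Wnt11, which is needed for heart formation in embryos, had 6.24 and 5.79 in TTg-MI, against 6.10 and 6.23 in Ctrl-MI. Again both Ctrl-MI arrays lay inside the TTg-MI range.

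The arrays of the groups were apart for 3 ligands, each by little. Wnt7a had 6.77 and 6.82 in TTg-MI, against 6.64 and 6.60 in Ctrl-MI, a log2 difference of 0.17 (SE 0.15). Wnt6, a ligand of epithelia, had 5.70 and 5.61 in TTg-MI, against 5.56 and 5.30 in Ctrl-MI. Wnt9a, a ligand of developing joints, had 6.39 and 6.31 in TTg-MI, against 6.42 and 6.40 in Ctrl-MI. In limma their adjusted p values were 0.836, 0.801 and 0.957.

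Several ligands were dim. The lower quartile of the arrays ran from 5.41 to 5.48, and a value under it was not shown to be above background. Wnt1, Wnt2, Wnt3, Wnt8a and Wnt8b lay under it on 3 of 4 arrays, Wnt5b on 2 and Wnt6 on 1. On the other hand Wnt5a, Wnt7a, Wnt9b and Wnt10a lay above the array median on all 4 arrays. The remaining 8 ligands lay above the lower quartile on every array.

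R-spondins amplify Wnt signals by keeping Frizzled receptors at the cell surface. Rspo1 had 7.15 and 6.67 in TTg-MI, against 7.32 and 6.81 in Ctrl-MI, and the groups overlapped (log2 difference -0.16, SE 0.26). Rspo2 and Rspo4 differed by 0.07 (SE 0.17) and -0.01 (SE 0.25). Rspo3, an endothelial R-spondin, was under the lower quartile on all 4 arrays, so that no difference is given for it. Porcn, the enzyme that attaches the lipid without which Wnts are not secreted, had 8.46 and 8.21 in TTg-MI, against 8.58 and 8.19 in Ctrl-MI. Both TTg-MI arrays lay inside the Ctrl-MI range, and the log2 difference was -0.05 (SE 0.20).

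**Figure D3:**
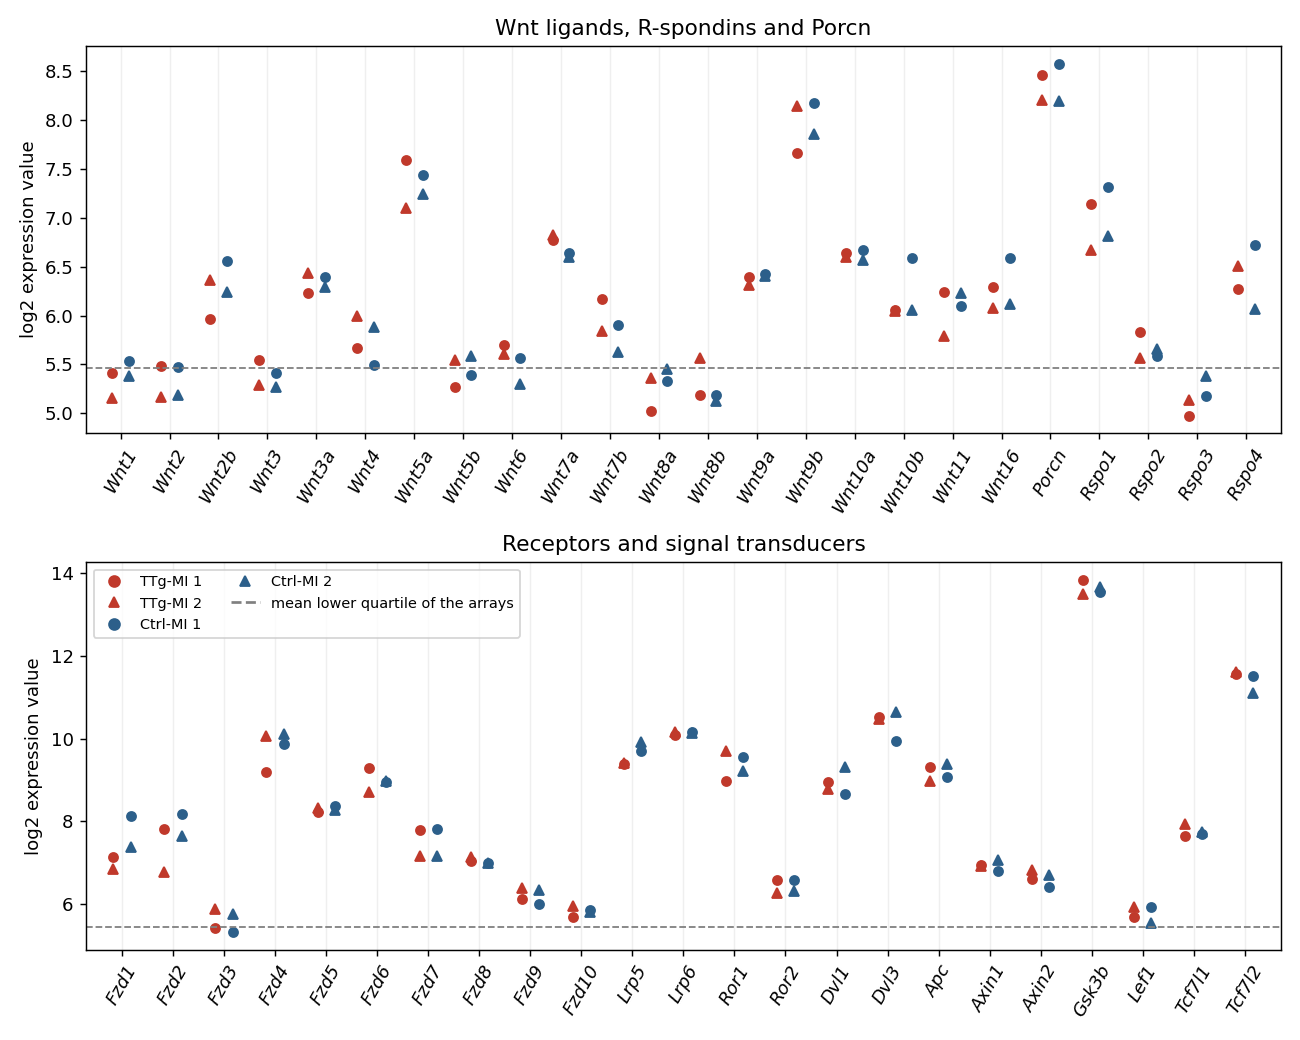
Log2 expression value (vertical axis) of the 47 Wnt pathway genes (horizontal axis) on each array, TTg-MI in red at the left of each gene and Ctrl-MI in blue at the right, circles for replicate 1 and triangles for replicate 2. The dashed line is the mean lower quartile of the arrays, and the ranges of red and blue points overlap for all but 8 genes; levels of different genes come from different probes and are not comparable.

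Of the 10 Frizzled receptors, 4 were higher and 6 lower in TTg-MI, and 1 had an unadjusted p under 0.05. That gene was Fzd1 (probe TC0500001896.mm.2), with 7.14 and 6.86 in TTg-MI, against 8.14 and 7.39 in Ctrl-MI. The groups did not overlap, and Ctrl-MI replicate 1 was the highest array. The means were 7.00 ± 0.20 in TTg-MI and 7.76 ± 0.53 in Ctrl-MI (SD, n = 2 each). The log2 difference was -0.76 (SE 0.28, 95% interval -1.46 to -0.06), which is 1.70-fold lower in TTg-MI. In limma the unadjusted p was 0.0378 and the adjusted p 0.588. Its size depended on the Ctrl-MI hearts: it was -0.39 with Ctrl-MI replicate 1 set aside and -1.14 with Ctrl-MI replicate 2 set aside. Setting aside the TTg-MI hearts in turn gave -0.90 and -0.62.

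Fzd2, a close relative of Fzd1 chosen after its values were seen, had 7.81 and 6.79 in TTg-MI, against 8.19 and 7.65 in Ctrl-MI. TTg-MI replicate 1 lay between the Ctrl-MI arrays, and TTg-MI replicate 2 lay well under them. The log2 difference was -0.62 (SE 0.38, adjusted p = 0.736 in limma). With TTg-MI replicate 1 set aside it was -1.14, and with TTg-MI replicate 2 set aside -0.11. Fzd7, the third member of this subfamily, had 7.80 and 7.17 in TTg-MI, against 7.82 and 7.17 in Ctrl-MI. For Fzd7 the replicates of each group were 0.62 and 0.65 apart in TTg-MI and Ctrl-MI while the group means differed by -0.01 (SE 0.31).

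Fzd4, a receptor of the vessel wall that also binds the ligand norrin, had 9.19 and 10.05 in TTg-MI, against 9.88 and 10.12 in Ctrl-MI. Only TTg-MI replicate 1 was low, and without it the log2 difference was 0.06 in place of -0.37 (SE 0.31). Fzd8 had 7.04 and 7.13 in TTg-MI, against 7.00 and 6.99 in Ctrl-MI, groups apart by 0.09 on average (SE 0.15). Fzd3, Fzd5, Fzd6, Fzd9 and Fzd10 differed by -0.04 to 0.11, and Fzd3 lay under the lower quartile on 2 arrays.

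The co-receptor Lrp5 (probe TC1900000882.mm.2), also known for its part in bone mass and in retinal vessels, had 9.38 and 9.42 in TTg-MI, against 9.69 and 9.92 in Ctrl-MI. The groups did not overlap, and the TTg-MI arrays lay close together. The means were 9.40 ± 0.03 in TTg-MI and 9.81 ± 0.16 in Ctrl-MI (SD, n = 2 each). The log2 difference was -0.41 (SE 0.16, 95% interval -0.81 to -0.01), which is 1.33-fold lower in TTg-MI. In limma the unadjusted p was 0.0474 and the adjusted p 0.600, and leaving out single arrays gave differences from -0.52 to -0.30. Lrp6, the other co-receptor, had 10.08 and 10.17 in TTg-MI, against 10.16 and 10.13 in Ctrl-MI. Its log2 difference was -0.02 (SE 0.15), with an interval of -0.39 to 0.35. Whether Lrp5 and Lrp6 differ in their difference was not tested.

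Markers of fibroblasts and macrophages had lower means in TTg-MI, as Fzd1 and Lrp5 had. All 9 measured fibroblast markers were lower in TTg-MI, with a mean log2 level of 12.21 and 11.34 in TTg-MI, against 13.44 and 12.62 in Ctrl-MI. All 8 measured macrophage markers were lower as well, with 8.81 and 8.38 in TTg-MI, against 10.35 and 9.22 in Ctrl-MI. In each group replicate 1 had the higher marker means, the higher Fzd1 and Fzd2 values and the lower Lrp5 value. With 2 hearts per group such an order says little. Rspo1, Porcn and Fzd7, among other members, were also higher in replicate 1 of both groups. Endothelial markers averaged 11.68 and 11.17 in TTg-MI, against 11.59 and 11.35 in Ctrl-MI, and the groups overlapped. The part of these cells in the receptor values was not tested.

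**Figure D4:**
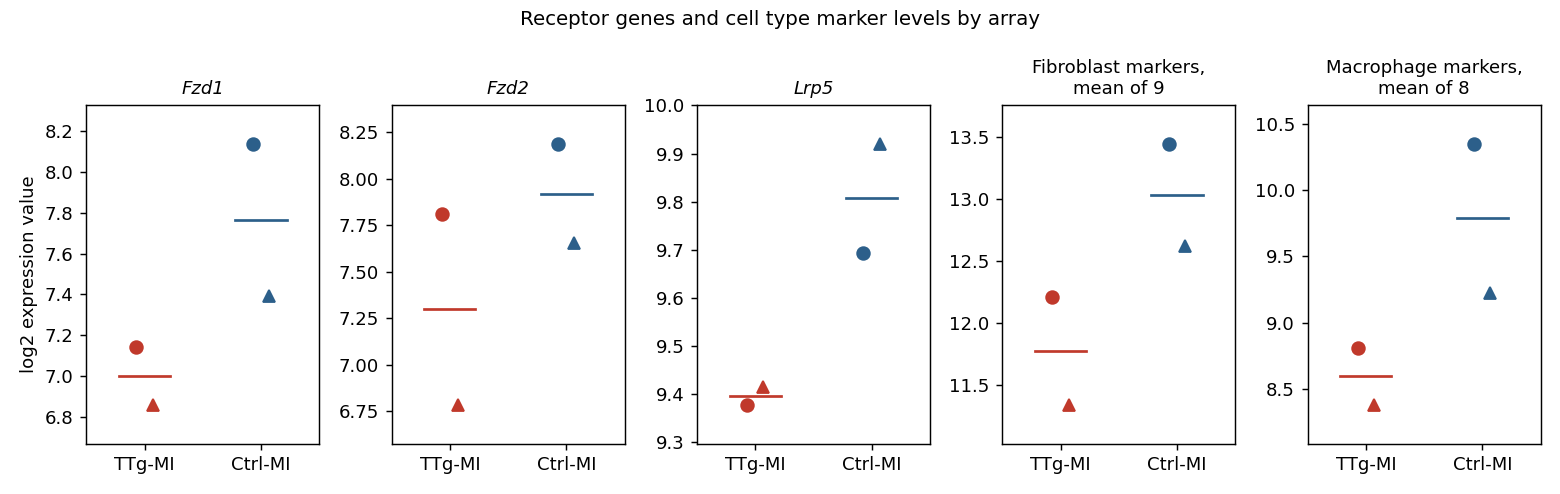
Log2 expression values (vertical axes, each with its own range not starting at 0) of Fzd1, Fzd2 and Lrp5 and the mean log2 level of 9 fibroblast and 8 macrophage markers in TTg-MI (red) and Ctrl-MI (blue); circles are replicate 1, triangles replicate 2 and lines group means. TTg-MI lies below Ctrl-MI without overlap in every panel but that of Fzd2, where TTg-MI replicate 1 at 7.81 lies above Ctrl-MI replicate 2 at 7.65.

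Of the 8 members whose groups did not overlap, Fzd1 (lower in TTg-MI) and Tcf7l2 (higher) hold the letters bound by TCF/LEF factors within 250 bases ahead of a start site. No window was held for Lrp5. The windows of Fzd1 and Tcf7l2 are shown because such factors are the pathway's own nuclear effectors. Sequences are RefSeq's on GRCm38.p6, the 250 bases before the start, 5′ to 3′ on the gene's strand, with capitals marking CTTTGA or CTTTGT or their reverse complements TCAAAG and ACAAAG. The Fzd1 window is chr5:4758217-4758466 (minus strand), with matches that begin 242 and 37 bases before the start. The Tcf7l2 window is chr19:55895071-55895320 (plus strand), ahead of the inner of 2 start sites of that gene, with a match 14 bases before it.
Fzd1: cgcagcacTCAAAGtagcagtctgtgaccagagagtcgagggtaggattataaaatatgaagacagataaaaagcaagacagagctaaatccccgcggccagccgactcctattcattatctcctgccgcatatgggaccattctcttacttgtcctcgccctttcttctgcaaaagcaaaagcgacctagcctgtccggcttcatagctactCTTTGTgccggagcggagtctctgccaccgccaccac
Tcf7l2: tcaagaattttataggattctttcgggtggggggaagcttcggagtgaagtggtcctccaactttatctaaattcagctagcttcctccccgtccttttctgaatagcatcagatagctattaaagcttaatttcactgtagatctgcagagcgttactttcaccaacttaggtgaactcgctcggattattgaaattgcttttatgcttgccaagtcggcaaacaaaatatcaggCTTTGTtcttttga

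Windows were held for 32 of the 47 members, and 11 of these had at least 1 match in a window. By window it was 11 of 39 (28.2%), beside 27.6% of the 32851 windows of all genes, so that these letters were about as common ahead of the members as elsewhere. A match is not evidence of binding.

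The other receptors and the transducers had log2 differences between -0.13 and 0.27. Ror1, a receptor kinase for Wnt5a, had 8.98 and 9.69 in TTg-MI, against 9.54 and 9.22 in Ctrl-MI, with both Ctrl-MI arrays inside the TTg-MI range. The log2 difference was -0.05 (SE 0.28), and that of the related Ror2 -0.02 (SE 0.19). Dvl3, one of the Dishevelled proteins that relay the signal from Frizzled, had 10.52 and 10.47 in TTg-MI, against 9.94 and 10.65 in Ctrl-MI. Here Ctrl-MI replicate 1 was the low array, and the difference of 0.20 (SE 0.26) became -0.15 with that array set aside and 0.56 with the other Ctrl-MI array set aside. Dvl1 differed by -0.13 (SE 0.25).

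In the destruction complex, Gsk3b, the kinase that marks beta-catenin for degradation, had 13.83 and 13.49 in TTg-MI, against 13.55 and 13.67 in Ctrl-MI. Both Ctrl-MI arrays lay inside the TTg-MI range (log2 difference 0.06, SE 0.18). The scaffold genes Apc and Axin1 differed by -0.08 (SE 0.21) and -0.01 (SE 0.17). Axin2, a scaffold that is also a widely used target gene of beta-catenin and was chosen for this role after its values were seen, had 6.61 and 6.82 in TTg-MI, against 6.41 and 6.71 in Ctrl-MI. The groups overlapped, and the log2 difference was 0.16 (SE 0.18, 95% interval -0.30 to 0.61, adjusted p = 0.882 in limma).

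All 3 TCF/LEF genes had a higher mean in TTg-MI, by 0.07 for Lef1 (SE 0.20) and Tcf7l1 (SE 0.17) and by 0.27 for Tcf7l2 (SE 0.19). Tcf7l2, a main partner of beta-catenin in adult tissues, had 11.55 and 11.62 in TTg-MI, against 11.51 and 11.11 in Ctrl-MI. The TTg-MI arrays lay just above Ctrl-MI replicate 1, and the difference became 0.07 when Ctrl-MI replicate 2 was set aside and 0.47 when Ctrl-MI replicate 1 was. None of the 3 had an unadjusted p under 0.05 in limma, the smallest being 0.203.

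Other genes of the pathway were read from lists, in which 0 genes passed the adjusted threshold in limma. At an unadjusted p under 0.05, beside 8.25% of all probes, there were 2 of 6 genes of Wnt secretion and the cell surface, both lower in TTg-MI. They were the heparan sulfate proteoglycan genes Gpc6 (-0.73, SE 0.20) and Sdc1 (-0.55, SE 0.16), log2 differences as before. Of 11 genes of receptor turnover and further co-receptors there were 0, and the smallest p belonged to Reck (-0.61, SE 0.29), a co-receptor for Wnt7 in vessels, and to Tspan12 (0.31, SE 0.21), a partner of Fzd4. With Ctrl-MI replicate 1 set aside these became -0.28 for Reck and 0.06 for Tspan12.

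Among 25 cytoplasmic regulators, Nkd2, a Dishevelled-binding inhibitor, was lower (-0.91, SE 0.27) and the kinase gene Csnk1g1 higher (0.58, SE 0.23) at that unadjusted threshold. Among 16 nuclear cofactors, the co-repressor Tle3 was lower (-0.91, SE 0.29) and the beta-catenin partner Bcl9 higher (0.58, SE 0.21). In the polarity and calcium branch there were 3 of 27, Prkca, a protein kinase C, lower (-1.08, SE 0.21), Prickle1, a core polarity gene, higher (0.90, SE 0.24) and Celsr3, another polarity gene, higher (0.66, SE 0.22). Celsr3 was named after its values were seen. Single hearts moved several of these differences: with Ctrl-MI replicate 1 set aside Nkd2 stood at -0.54, Csnk1g1 at 0.30 and Bcl9 at 0.36. With TTg-MI replicate 1 set aside Tle3 stood at -0.55 and Celsr3 at 0.42.

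Of 23 genes known as beta-catenin targets in some tissue, 9 were higher and 14 lower in TTg-MI, with a median log2 difference of -0.13, beside 0.01 over all named genes. At an unadjusted limma p under 0.05 there were 4 (17.4%), all lower, beside 8.25% of all probes (5.07% lower and 3.18% higher). Cd44, a hyaluronan receptor, had 7.72 and 8.22 in TTg-MI, against 10.07 and 9.14 in Ctrl-MI, with no overlap and a log2 difference of -1.63 (SE 0.35). Ccn5, a matricellular gene, had 9.35 and 8.57 in TTg-MI, against 12.10 and 10.32 in Ctrl-MI, also with no overlap and a log2 difference of -2.25 (SE 0.60). Sox9 (-1.05, SE 0.28) and Jag1 (-0.43, SE 0.16), named after their values were seen, completed the 4. With Ctrl-MI replicate 1 set aside the difference was -1.36 for Ccn5 and -0.69 for Sox9. The fibroblast and macrophage markers given above were lower in TTg-MI too, with median log2 differences of -1.30 and -1.25, and their part in the target values was not tested. The direct feedback targets on the list that are also members, Axin2 and Lef1, are given above. Other targets were named after their values were seen. Tnfrsf19 (0.43, SE 0.18), Sp5 (0.30, SE 0.17), Znrf3 (0.19, SE 0.22) and Dkk1 (0.17, SE 0.16) were higher in TTg-MI. Myc (-1.55, SE 0.64), Ccn1 (-1.87, SE 0.87), Notum (-0.27, SE 0.17), Nkd1 (-0.15, SE 0.15) and Lgr5 (-0.09, SE 0.16) were lower. None of these had an unadjusted limma p under 0.05. Without TTg-MI replicate 2 the count at that threshold was 2, Cd44 lower and Tnfrsf19 higher (3.88% of all probes). With Ctrl-MI replicate 2 set aside it was 6, all lower (14.7% of all probes), of which 5 passed the adjusted threshold (1.5% of all probes did).

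The list of Wnt antagonists held genes of secreted proteins and of the membrane proteins Kremen1 and Kremen2. Most of its 15 genes hold ligands away from the receptors or block Lrp5 and Lrp6. In TTg-MI 8 were higher and 7 lower, with a median log2 difference of 0.03, beside 0.01 over all named genes. In limma 0 passed the adjusted threshold. At an unadjusted limma p under 0.05 there were 3 (20%), all lower in TTg-MI, beside 8.25% of all probes (5.07% lower and 3.18% higher). They were Sfrp1 (-2.89, SE 0.62), Frzb (-2.66, SE 0.72) and, named after its values were seen, Sfrp2 (-3.31, SE 1.20). With Ctrl-MI replicate 1 set aside the log2 differences were -2.05 for Sfrp1, -1.75 for Frzb and -1.79 for Sfrp2, and with TTg-MI replicate 2 set aside Sfrp2 stood at -2.04. Sfrp2 was no longer under the unadjusted threshold in either of these fits. With Ctrl-MI replicate 2 set aside they were -3.74, -3.56 and -4.84, and Sfrp1 passed the adjusted threshold (1.5% of all probes did). All 9 measured fibroblast markers were lower in TTg-MI as well, at a mean log2 level of 12.21 and 11.34 in TTg-MI, against 13.44 and 12.62 in Ctrl-MI, and their part in the antagonist values was not tested.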

How the data were processed

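RNA of 4 hearts was hybridised to 1-colour Clariom S Mouse arrays, 1 array per heart. The authors' deposited values were used as they stand. Per the submitters' processing notes, the authors made these log2 values in Affymetrix Expression Console 1.4, and the base of 2 was inferred from their range. The normalization, summarization, annotation and build: not given in the sources used here. Of 22206 probes 19572 had 1 gene symbol, from the platform annotation, and 2634 were unnamed here. Where a symbol had several probes, the one with the highest mean was used; each of the 47 members had 1.

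The test was limma's moderated test (version 3.58.1, R 4.3.3, lmFit and eBayes, two-sided) on every probe. P values were adjusted by Benjamini-Hochberg across the whole array, and 0.05 was the threshold. The residual degrees of freedom were 2, to which the prior added 3.56. The number of arrays limits the precision: an exact permutation test of 2 against 2 cannot go below 0.333. Intervals are limma's 95% intervals. The fit was tested on simulated data with changes larger than any difference of the members, so that test does not cover changes of the members' size.

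The members and all lists were chosen with earlier results of these data known, so no p was adjusted over a list alone and lists are described by counts and medians. Every member is named, with values per array for those at an unadjusted p under 0.05, those at least 1.5-fold apart without overlap, and the one with the highest mean in each role; up to 2 genes with the smallest p are named from each other list, and array values of further members, and other genes outside this rule, were chosen after their values were seen. Alternatives were quantile normalization, median centring, leaving out dim probes, a robust prior with an intensity trend, a replicate block, averaging a gene's probes, and each array left out.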

Additional observations from a re-analysis of the deposited data

How the results depend on the processing

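The count of members past the adjusted threshold in limma was 0 in every alternative run, including the fits that left out 1 array, in which the whole array gave between 1 and 332 calls. The count at an unadjusted p under 0.05 was 2 (Fzd1 and Lrp5). It was 1 (Fzd1) with quantile normalization, 1 with median centring, 1 with dim probes left out and 1 with an intensity trend and robust prior, where 8.46%, 8.24%, 8.95% and 8.01% of all probes passed. Leaving out single arrays gave 1 to 3, namely Lrp5 without Ctrl-MI replicate 1 (6.34% of all probes), Fzd1, Dvl3 and Wnt10b without Ctrl-MI replicate 2 (14.7%), Fzd2 without TTg-MI replicate 1 (5.79%) and Fzd4 without TTg-MI replicate 2 (3.88%). The cause was not tested. The median difference of the members ran from -0.0598 to 0.0141 over these fits, the first without Ctrl-MI replicate 2. It was 0.0017 with median centring. Of the 23 beta-catenin targets, 6 had an unadjusted limma p under 0.05 with median centring (8.24% of all probes did). With the replicate block it was 6 as well (11.1% of all probes), in place of 4. As single arrays were left out, the median log2 difference of the targets ran from -0.194 to -0.0525. It ran from -0.300 to -0.225 for secretion genes and from -0.0809 to 0.123 for receptor turnover. For cytoplasmic regulators it ran from -0.0529 to -0.0209 and for nuclear cofactors from -0.0431 to 0.1215. The polarity and calcium branch gave -0.0478 to 0.0374, and the antagonists -0.145 to 0.152.

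The groups share replicate numbers, but nothing in the labels pairs the hearts, and the deviations of same-numbered arrays correlated at 0.163 over all probes. With the replicate block the unadjusted count was 2 (Fzd1 and Fzd2, with 11.1% of all probes). In that fit 0 members passed the adjusted threshold, and 7 probes of the array did, 3 of them on the list of Wnt antagonists.

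The sign of small differences was not settled. As single arrays were left out, the log2 difference ran from -0.358 to 0.122 for Wnt9b, -0.414 to 0.0948 for Rspo1, -0.246 to 0.139 for Porcn, -0.804 to 0.0558 for Fzd4, -0.0595 to 0.0222 for Lrp6, -0.402 to 0.311 for Ror1, -0.151 to 0.558 for Dvl3 and -0.112 to 0.223 for Gsk3b. With quantile normalization Lrp6 stood at 0.0419. Fzd1, Lrp5 and Tcf7l2 kept their sign in every alternative, but most of these fits could not have changed it. Their groups did not overlap, so leaving out 1 array could not reverse the sign. The replicate block, the robust prior, leaving out dim probes and averaging a gene's probes left their differences as they were.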
